A study of Mus musculus with 6 samples.

Results

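A set of 8 genes that restrain MAP kinase signalling were followed in splenic CD8+ T cells of mice: Dusp1, Dusp2, Dusp4, Dusp5, Dusp6, Dusp10, Dusp16 and Spry1. They were chosen by name, with earlier results of these data known. All 8 were found among the 28773 genes in the files. RNA of day 35 was sequenced from 3 MWA+PBS samples (replicates 1 to 3) and 3 MWA+2DG samples (replicates 4 to 6). Mice of both groups had a tumor treated by microwave ablation (MWA). They then received injections of 2-deoxy-D-glucose (2DG), a glucose analogue that blocks glycolysis, or of the PBS vehicle. By the study's methods the injections had ended before the spleens were taken, the mice were female, and the cells came from a magnetic CD8+ T cell isolation kit. The labels for these 6 samples do not give the strain, the age or the tumor line, nor whether each sample was 1 mouse. The p-values therefore measure the spread between these samples, which may be technical.

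In T cells, engagement of the antigen receptor activates the MAP kinases ERK, JNK and p38 by phosphorylation. The dual-specificity phosphatases (DUSPs) of the MAP kinase phosphatase family remove these phosphates, and many of their genes are induced by the pathway they switch off. Dusp1, Dusp2, Dusp4 and Dusp5 encode inducible nuclear enzymes, Dusp6 a cytoplasmic enzyme for ERK, and Dusp10 and Dusp16 enzymes that prefer JNK and p38. Sprouty proteins such as Spry1 act further upstream, where growth factor and antigen receptors signal through Ras to ERK.

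The genes did not move together. Dusp1 fell in MWA+2DG to a level 4.28-fold lower by the ratio of means, Dusp2 rose 1.64-fold, and Dusp4, which stayed near 1 FPKM, rose 1.75-fold. Neither increase was called when libraries were scaled to T cell genes, where Dusp2 was at 0.24 and Dusp4 at -0.04 on the log2 scale. Dusp5, Dusp6 and Dusp10 did not pass the test, and Dusp16 and Spry1 were below the filter on low values. Levels are FPKM, in which fragment numbers are divided by transcript length and library size, so they can be set side by side between genes. A gene was tested if its mean over the 6 samples was at least 1 FPKM, which 6 of the 8 members and 12444 genes in all met. The test was limma on log2(FPKM + 1) with a Benjamini-Hochberg adjusted p under 0.05. Of the 6 members tested, 2 were called higher and 1 lower, while 22.3% of all tested genes were called higher and 17.1% lower. The median log2 fold change was 0.08 over the 6 members and 0.05 over all tested genes. With so few members these counts cannot be told from that background, and the values below concern single members.

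**Figure D1:**
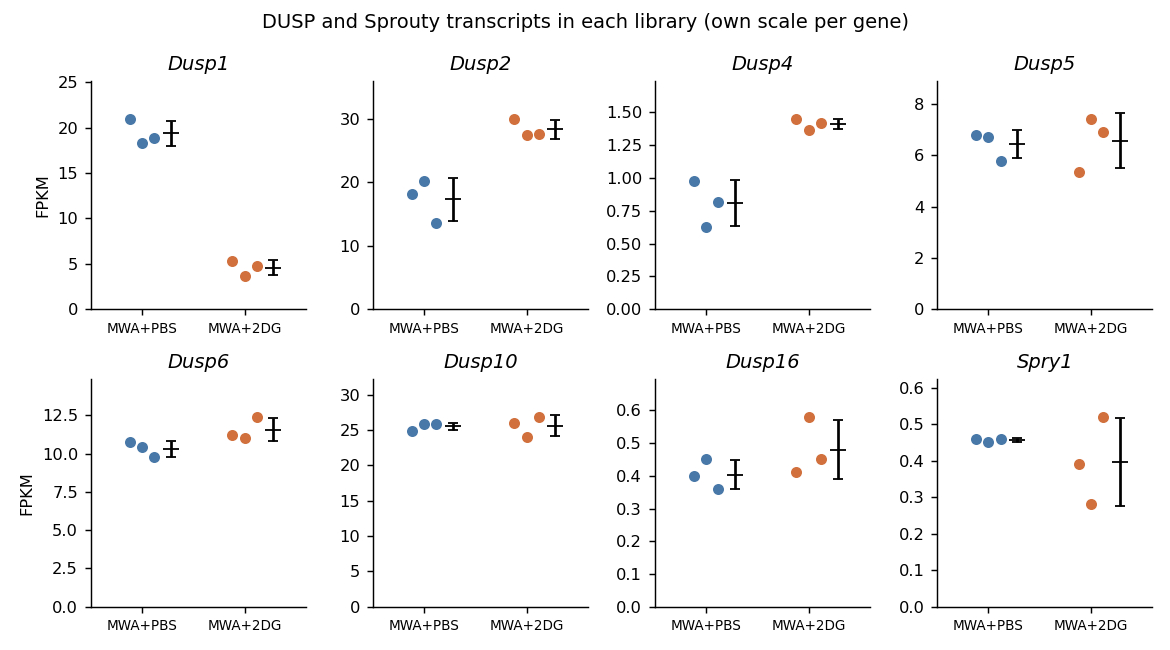
FPKM of each of the 8 genes in the 3 MWA+PBS and 3 MWA+2DG libraries, 1 point per library, with the group mean and SD as a bar; each panel has its own axis from 0. The Dusp1 points of MWA+2DG lie between 3.64 and 5.27, all below the lowest MWA+PBS value of 18.35, whereas the Dusp10 points of both groups overlap.

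The CD8+ label was checked first. The 5 CD8 T cell markers (Cd8a, Cd8b1, Cd3e, Cd3d and Trac) were all called higher in MWA+2DG, with a summed level of 950.5 to 993.8 FPKM in the MWA+PBS libraries and 1391 to 1473 in the MWA+2DG libraries. Markers of other cells also moved with the groups. All 14 macrophage markers were lower, their sum going from between 955.2 and 1043 FPKM down to between 140.6 and 148.4, and all 8 erythroid markers were lower, from 291.9 to 347.6 down to 66.9 to 84.9. Of 12 neutrophil markers 11 were higher, from 68.1 to 92.9 up to 1607 to 1789, and all 8 B cell markers were higher, from 9.15 to 10.3 up to 51.9 to 57.6. The B cell gene Fcer2a was at 0 in 1 MWA+PBS library. The other lists were at most 8.09 FPKM in sum, and in them Ncr1 (NK cell), Flt3 (dendritic cell) and Cd4 were lower, while Klra4 was at 0 in 2 libraries. Flt3 passed the filter only through MWA+PBS (2.82 ± 0.619 FPKM, against 0.617 ± 0.0493), and the 4 other dendritic cell markers were below it. The share of each cell type in the members' values was not tested. In these bulk samples, fewer cells of a type and less RNA per cell cannot be told apart. Nor can an isolation or sequencing batch, which the labels do not give, be told apart from the treatment.

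Dusp1 (ENSMUSG00000024190) encodes a nuclear phosphatase for p38, JNK and ERK and is an immediate early gene, transcribed within minutes of a stimulus or stress. Its level was 20.95, 18.35 and 18.89 FPKM in the MWA+PBS libraries and 5.27, 3.64 and 4.70 in the MWA+2DG libraries. The groups were far apart relative to their spread, at 19.4 ± 1.37 and 4.54 ± 0.827 FPKM (SD, n = 3 each). The log2 fold change was -1.89 ± 0.11 (SE; 95% interval -2.16 to -1.62), and limma gave an adjusted p of 2.01e-05. It was the 100th largest decrease among the 12444 genes. In MWA+PBS, 81.7% of tested genes had a lower level than Dusp1, and in MWA+2DG 38.4% did.

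Because Dusp1 and Dusp2 changed in opposite directions and Dusp5 did not pass the test, the 250 bases before the transcription start of these 3 immediate early genes are shown. Reference sequences were taken from a set of RefSeq promoter windows (GRCm38.p6), which held 7 of the 8 members. Dusp4 had no window in that set and is named only. The Dusp1 run is chr17:26508473-26508722 (minus strand), that of Dusp2 chr2:127335909-127336158 (plus strand) and that of Dusp5 chr19:53528895-53529144 (plus strand). Each is printed 5′ to 3′ on the gene's strand, with position -1 next to the start. Capitals mark letters that match a cAMP response element (CRE, TGACGTCA), its core TGACG, an AP-1 site (TGANTCA), a serum response element (CArG box) or a heat shock element (GAANNTTC) on either strand.
Dusp1: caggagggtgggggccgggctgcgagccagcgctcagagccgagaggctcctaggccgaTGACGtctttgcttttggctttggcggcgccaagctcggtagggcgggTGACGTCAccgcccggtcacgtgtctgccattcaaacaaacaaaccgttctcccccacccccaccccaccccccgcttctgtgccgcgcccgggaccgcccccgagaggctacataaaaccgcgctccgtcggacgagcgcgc
Dusp2: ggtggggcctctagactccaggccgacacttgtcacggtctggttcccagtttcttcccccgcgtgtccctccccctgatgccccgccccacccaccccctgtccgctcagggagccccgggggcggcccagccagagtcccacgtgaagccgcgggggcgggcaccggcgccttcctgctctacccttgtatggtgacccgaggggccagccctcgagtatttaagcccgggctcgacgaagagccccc
Dusp5: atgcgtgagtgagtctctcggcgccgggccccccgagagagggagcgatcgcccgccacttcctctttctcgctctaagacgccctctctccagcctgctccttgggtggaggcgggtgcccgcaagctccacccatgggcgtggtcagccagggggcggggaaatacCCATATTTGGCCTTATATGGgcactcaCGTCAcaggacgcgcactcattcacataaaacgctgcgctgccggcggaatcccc
The Dusp1 run held a full CRE at -143 and a further TGACG core at -191, and a full CRE was in 1.79% of 32851 reference windows of 300 bases (250 before and 50 after the start). The full CRE contains a TGACG core on each strand, so these matches overlap. The Dusp2 run held none of the 5 motifs, and the core was first met at +6, beyond the printed bases. The Dusp5 run held adjacent CArG boxes at -82 and -72, which 1.63% of windows hold at least once, and a core at -55. The core alone was in 20.8% of windows. Of the other members with a window, Dusp16 held a core at -70 and a heat shock element at -25, and Dusp6, Dusp10 and Spry1 held none of the motifs. An AP-1 site, found in 7.81% of windows, was in none of the 7, and a heat shock element was in 7.86% of all windows. A match describes the letters and does not show that a factor binds there.

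Dusp2 (ENSMUSG00000027368) encodes PAC-1, a nuclear phosphatase first found in activated lymphocytes. Its level was 18.12, 20.18 and 13.61 FPKM in the MWA+PBS libraries and 29.96, 27.42 and 27.56 in the MWA+2DG libraries. Every MWA+2DG sample was above every MWA+PBS sample, with means of 17.3 ± 3.36 and 28.3 ± 1.43 FPKM. The log2 fold change was 0.70 ± 0.13 (95% interval 0.39 to 0.996; limma adjusted p = 0.00459). The call depended on how the libraries were scaled. When each library was set to the mean level of 15 T lineage genes, 14 of which were called higher, the change was 0.24 and the limma adjusted p was 0.0822.

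Dusp4 (ENSMUSG00000031530), an inducible nuclear phosphatase related to Dusp1, had 0.98, 0.63 and 0.82 FPKM in the MWA+PBS libraries and 1.45, 1.37 and 1.42 in the MWA+2DG libraries. The groups did not overlap, at 0.81 ± 0.175 and 1.41 ± 0.0404 FPKM. The log2 fold change of FPKM + 1 was 0.42 ± 0.11 (95% interval 0.17 to 0.67; limma adjusted p = 0.0177). With a pseudocount of 0.1 in place of 1 it was 0.75. This gene passed the filter on low values only through its MWA+2DG level, its MWA+PBS mean being under 1 FPKM. Its call was lost without MWA+2DG replicate 4 (limma adjusted p = 0.0581) or replicate 6 (0.0561), and under T lineage scaling the value was -0.04 (0.772).

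Dusp5 (ENSMUSG00000034765), a nuclear phosphatase specific for ERK, had 6.78, 6.70 and 5.79 FPKM in the MWA+PBS libraries and 5.36, 7.41 and 6.92 in the MWA+2DG libraries. The groups overlapped, at 6.42 ± 0.55 and 6.56 ± 1.07 FPKM. The log2 fold change was 0.02 ± 0.11 (95% interval -0.25 to 0.29; limma adjusted p = 0.909). Under T lineage scaling the value was -0.44 (0.011).

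Dusp6 (ENSMUSG00000019960), the cytoplasmic phosphatase that is a standard reporter of ERK activity, had 10.78, 10.40 and 9.76 FPKM in the MWA+PBS libraries and 11.22, 11.00 and 12.40 in the MWA+2DG libraries. Its groups did not overlap, at 10.3 ± 0.516 and 11.5 ± 0.753 FPKM, yet the difference did not pass the test. The log2 fold change was 0.15 ± 0.07 (95% interval -0.01 to 0.31; limma adjusted p = 0.121). Groups that do not overlap were common, at 52.1% of all tested genes. Among the members Dusp1, Dusp2, Dusp4 and Dusp6 were in this class, 4 of the 6 tested.

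Dusp10 (ENSMUSG00000039384), a phosphatase for JNK and p38 that limits T cell cytokine responses, was the highest member in MWA+PBS. Its level was 24.95, 25.81 and 25.85 FPKM in the MWA+PBS libraries and 26.02, 24.01 and 26.90 in the MWA+2DG libraries. The means of 25.5 ± 0.509 and 25.6 ± 1.48 FPKM differed by less than the spread, with a log2 interval of -0.13 to 0.14 and a limma adjusted p of 0.957. Dusp16 (ENSMUSG00000030203), which also prefers JNK and p38, was far lower, with 0.40, 0.45 and 0.36 FPKM against 0.41, 0.58 and 0.45. Spry1 (ENSMUSG00000037211) had 0.46, 0.45 and 0.46 FPKM against 0.39, 0.28 and 0.52. Both were under the filter, and in both the MWA+PBS range overlapped that of MWA+2DG. In a fit without the filter their log2 intervals were -0.08 to 0.24 (limma adjusted p = 0.52) and -0.25 to 0.12 (0.604).

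**Figure D2:**
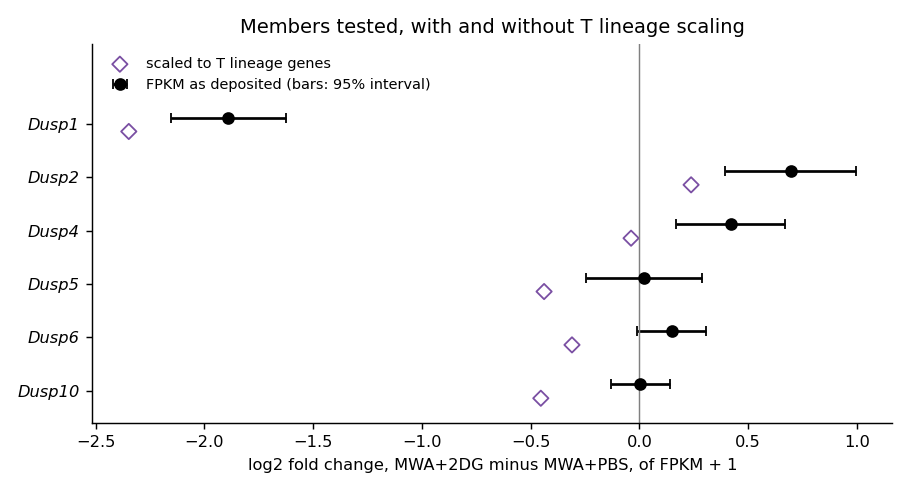
Log2 fold change (MWA+2DG minus MWA+PBS, of FPKM + 1) of the 6 tested members; filled points are the FPKM as deposited with 95% intervals, and open diamonds are the values after each library was scaled to T lineage genes. Dusp1 lies at -1.89 and -2.35, and Dusp2 is the only member above 0 under both scalings.

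T lineage scaling was examined for every member because the summed T cell markers differed between groups. It lowers each fold change by about the mean of the scaling list, 0.46, and moved the median of all tested genes from 0.05 to -0.41. Dusp1 was then at -2.35 (limma adjusted p = 8.41e-07), well below that median. Dusp5, Dusp6 and Dusp10 came to -0.44 (0.011), -0.31 (0.00244) and -0.45 (0.000276). They lay close to the median, and 71.9% of all tested genes were called lower under this scaling. Dusp2, at 0.24, was above the median by more than any other member.

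Order among the members differed between the groups. In MWA+PBS the means ran from Dusp10 through Dusp1, Dusp2, Dusp6, Dusp5 and Dusp4 to Spry1 and Dusp16. Neighbouring pairs in that order, Dusp1 with Dusp2 and Spry1 with Dusp16, overlapped in their ranges. In MWA+2DG the order was Dusp2, Dusp10, Dusp6, Dusp5, Dusp1 and Dusp4, followed by Dusp16 and Spry1, whose ranges overlapped. Dusp1 thus went from the second place to the fifth, and Dusp2 passed Dusp10.

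The summed level of the 7 phosphatase transcripts was 80.2 ± 4.43 FPKM in the MWA+PBS libraries and 78.5 ± 2.67 in the MWA+2DG libraries, which is within the spread. The make-up of that sum differed. Dusp1 held 24.2 ± 1.72% of it in MWA+PBS but 5.76 ± 0.897% with 2DG, and Dusp2 held 21.5 ± 3.18% and 36.1 ± 1.66%. The 4 nuclear inducible genes together held 54.7 ± 2.31% and 52.0 ± 1.3%. Dusp10 and Dusp16 held 32.4 ± 2.24% and 33.3 ± 0.725%, and Dusp6 held 12.9 ± 0.227% and 14.7 ± 0.684%. Within the nuclear class, then, the Dusp1 share was smaller and the Dusp2 share larger, while the shares of the nuclear class and of the JNK and p38 class overlapped between the groups. The Dusp6 share did not overlap. These shares are descriptions without a test.

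**Figure D3:**
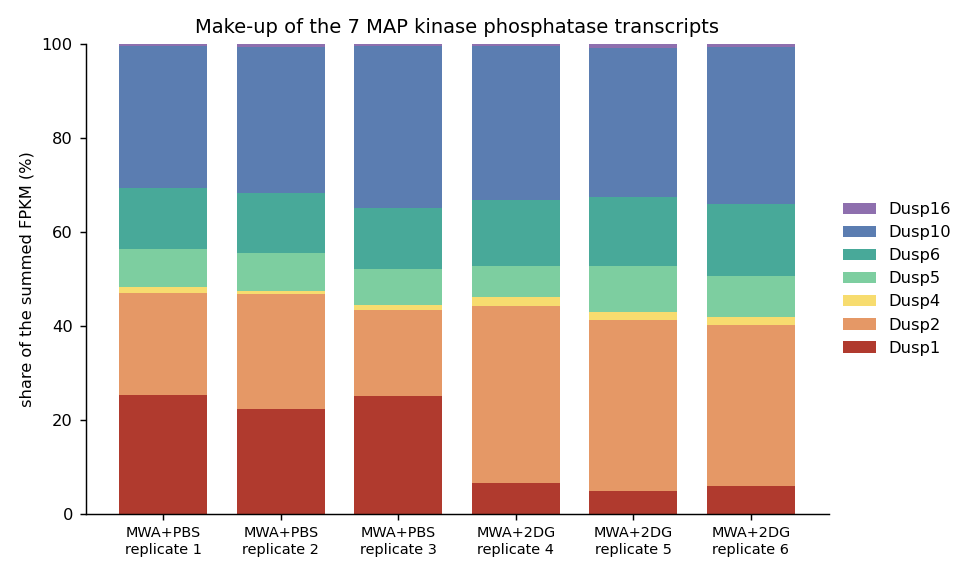
Share of each phosphatase transcript in the summed FPKM of the 7, in percent, for each of the 6 libraries. Dusp1 holds 22.2 to 25.3% in the MWA+PBS bars and 4.83 to 6.61% in the MWA+2DG bars, and Dusp2 holds 18.1 to 24.5% and 34.3 to 37.6%.

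A ratio of members within a library does not depend on how libraries are scaled. Dusp1 over Dusp2 was 1.16, 0.909 and 1.39 in MWA+PBS and 0.176, 0.133 and 0.171 in MWA+2DG, a log2 difference of -2.84. Dusp1 over Dusp10 was 0.840, 0.711 and 0.731 against 0.203, 0.152 and 0.175, a difference of -2.12. Both ratios were lower in every MWA+2DG library than in any MWA+PBS library. Dusp2 over Dusp10 was 0.726, 0.782 and 0.527 against 1.15, 1.14 and 1.03, a difference of 0.72 with no overlap. Dusp2 over Dusp4 overlapped, with a log2 difference of -0.10. Of the 15 pairs of tested members, 11 did not overlap, including all 5 with Dusp1. For single genes the share was 52.1% of all tested, which is another measure. No share was computed for pairs of other genes. The pairs share members and are not independent. The two-sided exact permutation test gave p = 0.1 for these 11, the smallest value that 3 samples against 3 allow, and 0.136 after adjustment over the 15 pairs, so no ratio could pass a threshold of 0.05.

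Related genes outside the set were taken from gene lists. Dusp7, the only other typical MAP kinase phosphatase above the filter, differed by -0.01 on the log2 scale (limma adjusted p = 0.933). Of 6 tested atypical DUSPs, 1 was called lower, beside 17.1% of all tested genes: Dusp3 (-0.80; limma adjusted p = 0.00059), a phosphatase with ERK and JNK among its substrates. Of 3 tested Sprouty and Spred genes, the ERK pathway inhibitors Spry2 (-0.69; 0.0059) and Spred1 (-0.56; 0.002) were called lower. Dusp3 (1.78 ± 0.0815 FPKM in MWA+PBS, 0.603 ± 0.0924 with 2DG) and Spry2 passed the filter only through MWA+PBS, where they were higher. Spry2 went from 2.05 ± 0.286 to 0.897 ± 0.281 FPKM and Spred1 from 3.87 ± 0.255 to 2.31 ± 0.252, both levels above those of Spry1. Spry4 and Spred3 were under the filter.

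Upstream, 7 of 21 tested genes of the ERK cascade were called higher and 1 lower, with a median of 0.06, while 22.3% of all tested genes were higher and 17.1% lower with a median of 0.05. Rasgrp1, the Ras activator downstream of the T cell receptor, rose by 0.61 (limma adjusted p = 0.000117), and the kinase gene Araf rose by 0.60. Mapk3, which encodes ERK1, changed by -0.27 (0.0203), a call that was lost without MWA+PBS replicate 1, MWA+2DG replicate 4 or MWA+2DG replicate 5. In the JNK and p38 cascades, 4 of 18 were higher and 4 lower, near those shares of all genes. Among the tested genes, Mapk11 (0.69), Map3k7 (0.37) and Mapk9 (0.36) were the largest called increases and Mapkapk2 (-0.61), Mapk14 (-0.41) and Map2k3 (-0.41) the largest called decreases. Mapk13 was below the filter, at a mean of 0.103 FPKM in MWA+PBS and 0.973 with 2DG. Mapk14 encodes p38 alpha, a kinase that Dusp1 and Dusp10 act on, and Mapkapk2 its substrate kinase. Of 12 other Ras and ERK inhibitors, 4 were higher, led by Dok2 (0.56), Rasal3 (0.37) and Rasa2 (0.25), and Nf1 was lower (-0.37). The Rasa2 call was lost when any single sample other than MWA+PBS replicate 2 was left out. Nf1 passed the filter only through MWA+PBS (1.51 ± 0.128 FPKM, against 0.94 ± 0.115), and its call was lost without MWA+PBS replicate 1, MWA+PBS replicate 3, MWA+2DG replicate 4 or MWA+2DG replicate 6. Under T lineage scaling limma called 0 of these genes higher (1 ERK cascade gene at an unadjusted p under 0.05), and 16 of 21, 15 of 18 and 10 of 12 lower, beside 71.9% of all tested genes.

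Genes that ERK signalling induces were mainly lower, like Dusp1. Of 14 tested, 9 were called lower and 2 higher, with a median of -0.44, beside 17.1% of all tested genes lower and 22.3% higher. The gene lists were chosen with earlier results of these data known, so their counts are descriptions. The AP-1 genes Fosb and Fos fell by 3.06 and 2.63 on the log2 scale, and the orphan receptor gene Nr4a1 fell by 1.23. Egr3 and Myc rose by 0.43 and 0.27, though both were below 0 under T lineage scaling. The Egr3 call was also lost without MWA+2DG replicate 4, without MWA+2DG replicate 5 or with no filter on low values. Heat shock genes, which cells induce when proteins unfold, were also lower, all 8 tested, with a median of -1.92. Their summed level was 1464 to 1534 FPKM in the MWA+PBS libraries and 486.0 to 513.0 in the MWA+2DG libraries. Hspa1b and Hspa1a fell by 5.64 and 5.34 and Hsph1 by 2.36, but the first pair are near-identical copies whose reads may be split uncertainly between them. Most of these genes, like the macrophage and erythroid markers above, were lower as Dusp1 was. The CD8 T cell and B cell markers and most neutrophil markers were higher. The part of these genes and markers in the Dusp1 result was not tested.

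**Figure D4:**
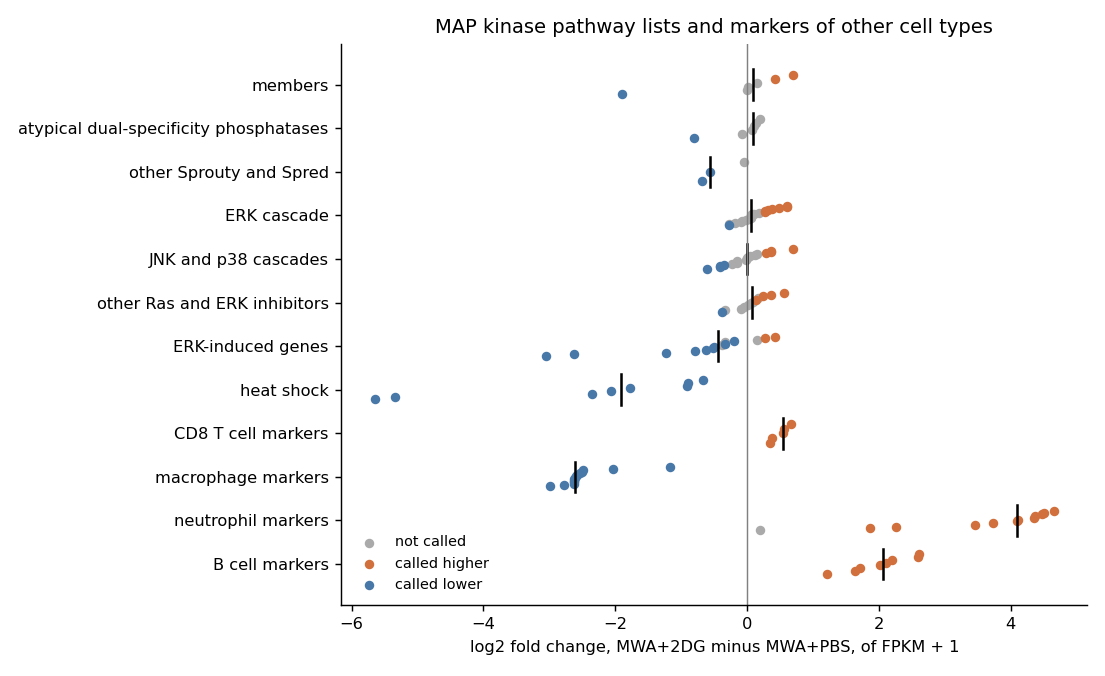
Log2 fold change (MWA+2DG minus MWA+PBS, of FPKM + 1) of each tested gene in the lists shown, 1 point per gene, colored by call. A vertical bar marks each list's median. The lists are the members, the pathway and heat shock lists, and the CD8 T cell, macrophage, neutrophil and B cell markers. Dusp7 and the erythroid, NK cell, dendritic cell and CD4 T cell markers are not plotted. The ERK-induced and heat shock medians lie at -0.44 and -1.92, and those of the macrophage and neutrophil markers at -2.60 and 4.10.

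For each tested member, the genes with the nearest profile over the 6 samples were found by the Euclidean distance of mean-centred log2(FPKM + 1). Tgm1 (0.14) and Ighv2-2 (0.155) were nearest to Dusp1, with 6 genes within a distance of 0.25. Igsf23 (0.108) and Trbv2 (0.137) were nearest to Dusp2, with 37 genes within that distance. Ighv2-2 and Trbv2 belong to multigene families whose reads may be split uncertainly. The profiles of Dusp4 (nearest Cyb561a3 and Dgkq) and Dusp5 (Gm38228 and Ptpmt1) were shared by 422 and 156 genes. Those of Dusp6 (Golga7 and Zfp770) and Dusp10 (Tbc1d15 and Ints12), which varied little, were shared by 2457 and 2718. The distance is not scaled to the size of a change, so these numbers depend on how much each member varied.

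The members did not share 1 gene structure. The longest annotated coding transcript had 2 to 7 exons in the 8 genes, against a median of 9 among tested genes. It ran from 1617 nt in Dusp2 and 1990 nt in Dusp1 to 5104 nt in Dusp16, with a median of 3051 nt among tested genes. The annotated gene span was 2218 bp in Dusp2 and 77158 bp in Dusp16, with a median of 22726 bp among tested genes. Dusp10 was also above that median. The span annotated for Dusp1 may include a read-through transcript and was not used.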

How the data were processed

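The 6 deposited tables held FPKM for 28773 genes with at most 2 decimals. The authors prepared poly(A) libraries with strand marking and molecular identifiers. They mapped reads with HISAT2 and computed FPKM with StringTie and ballgown. The submitters' processing notes name cutadapt 1.9, HISAT2 2.0.4, UMI-tools, StringTie 1.3.4d and the build mm9. The use of strand in counting fragments was not given in the sources used here. FPKM totals were 291803 to 313257 per library. No step that would recover whole reads was found in the low values, so depth is unknown and counting error could not be computed.

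Symbols came from GENCODE M21 (28689 genes matched, 84 not). limma 3.58.1 in R 4.3.3 (lmFit, eBayes with a trend, two-sided, no covariates) was fitted to log2(FPKM + 1) of the 12444 genes with a mean of at least 1 FPKM, a scale that understates changes of low genes. p-values were adjusted over all of them. The fit was tested on simulated data. Groups came from the sample titles. The members and gene lists were chosen with earlier results of these data known. Named list genes were the 3 largest called increases and decreases, and 2 nearest profiles were named per member; 1 list gene under this rule is not reported here. Single cases outside this rule (Dusp7, Mapk13, Spry4, Spred3, and marker genes at 0) were chosen after their values were seen. Dusp13, Dusp21, Dusp26, Spry3 and Klra8 had no match and were not analysed here. Proteins were not analysed here. Alternatives were another pseudocount, filters, scalings, variance models, a GC content and length correction, the study's call rule and leaving out each sample.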

Additional observations from a re-analysis of the deposited data

How the results depend on the processing

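Dusp1 kept its direction and call under all 15 alternatives, from -1.77 to -2.35. The value of -2.35 came from T lineage scaling, which lowers every fold change and so could not weaken a decrease. The next lowest was -2.09, with a pseudocount of 0.1. T lineage scaling left Dusp2 at 0.24, short of the threshold, and turned Dusp4 to -0.0385, Dusp5 to -0.44, Dusp6 to -0.31 and Dusp10 to -0.45. It called 9372 of all genes in place of 4907 (4.57% of them higher in place of 56.5%), 0 members higher (limma; also 0 at an unadjusted p under 0.05), 4 lower in place of 1, and 63 pathway genes in place of 35. This follows from its construction, since the T lineage list had a mean change of 0.46. Values near 0 changed sign elsewhere: Dusp5 was -0.0171 with quantile normalization, -0.0243 with median ratio scaling and -0.0474 with arrayWeights, and Dusp10 was -0.0447 with median ratio scaling and -0.00163 with the GC and length correction. A mean of at least 5 FPKM left 7313 genes and 2951 calls, and 1 member higher in place of 2, because Dusp4 was filtered out. Leaving out single samples gave 3706 to 5195 calls over all genes, 1 to 2 members higher, 0.35 to 0.49 for Dusp4, -0.0621 to 0.14 for Dusp5 and -0.0295 to 0.0493 for Dusp10. No paired analysis was possible because the replicate numbers of the groups are 1 to 3 and 4 to 6. List counts of 1 to 4 genes moved by 1 or 2 under several alternatives; the other Ras and ERK inhibitors called higher went from 4 to 2 without 5 of the 6 samples in turn. Depth is unknown, so the precision of Dusp4, Dusp16 and Spry1, near 1 FPKM or below, could not be judged from counts.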
